A study of Caenorhabditis elegans with 51 samples.

Results

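The 9 genes described here encode the machinery that divides, fuses, moves and removes mitochondria in *C. elegans*. They are *drp-1*, *fis-1* and *fis-2* (division), *fzo-1* and *eat-3* (fusion), *miro-1* (transport), and *pink-1*, *pdr-1* and *dct-1* (mitophagy, the removal of mitochondria by autophagy). They were chosen by symbol, with earlier results of these data known. All 9 had a row among the 14033 genes of the first RNA sequencing experiment and among the 14596 genes of the second. Each mutant strain was compared with the wild-type libraries whose values were given together with its own. These sets of libraries are called the first and the second experiment here. Whether they were separate experiments is not stated in the sources used here.

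The study asked which changes in gene expression long-lived mitochondrial mutants share. In the first experiment (39 libraries) the strains were *clk-1(qm30)*, which lacks a working enzyme of ubiquinone synthesis, *isp-1(qm150)*, with a mutated Rieske protein of complex III, *nuo-6(qm200)*, with a mutated subunit of complex I, and *daf-2(e1370)*, with a mutated insulin/IGF-1 receptor, each with 6 libraries. It also held 3 libraries each of *sod-1* (cytosolic superoxide dismutase), *ctl-1* (a catalase) and *prdx-2* (peroxiredoxin) mutants, whose alleles are not given in the sources used here, and 6 libraries of wild-type N2 worms. The second experiment (12 libraries) held 6 libraries of *sod-2(ok1030)* worms, which lack the main mitochondrial superoxide dismutase, and 6 of wild-type worms. By the labels, every library came from whole, pre-fertile young adult worms of a biological replicate grown at 20 °C on plates with OP50 bacteria, with no drug or RNAi treatment in any group, and the mutations are carried in every cell of the animal. In whole worms, fewer cells of a type and less RNA per cell cannot be told apart.

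Mitochondria form a network that is shaped by opposing dynamin-like GTPases. DRP-1 cuts the outer membrane, and FIS-1 and FIS-2 are its outer membrane partners by homology with Fis1 of yeast and mammals, while FZO-1 (mitofusin) joins outer membranes and EAT-3 (OPA1) joins inner membranes. MIRO-1 links mitochondria to the motors that carry them along microtubules. Damaged mitochondria are marked by the kinase PINK-1, the ubiquitin ligase PDR-1 (Parkin) and the receptor DCT-1, and are then engulfed by autophagosomes. DCT-1 is a relative of mammalian BNIP3 and NIX, and its gene is a known target of the FOXO factor DAF-16.

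Recovered reads per library ranged from 21434437 to 28805205 in the first experiment and from 22586580 to 33412986 in the second. As a check of the labels, the mutated transcript was lower in mutant than in wild-type worms for *clk-1* (9.99 against 22.4 normalized CPM), *sod-1* (4.28 against 163), *prdx-2* (64.3 against 562) and *sod-2* (0.278 against 86.4). For the point mutants *daf-2*, *nuo-6* and *isp-1*, the mutant mean of the mutated transcript lay above the wild-type mean. The libraries labelled *ctl-1* had 2.38 ± 0.541 normalized CPM of *ctl-1* (SD, n = 3), against 2.29 ± 0.411 in wild-type worms (SD, n = 6), so the transcript gives no check of that label, and they are called the libraries labelled *ctl-1* throughout. The wild-type libraries of the 2 experiments also pair off: over 8483 genes with a mean of at least 10, the deviation of each wild-type library from its group mean correlated best with that of 1 library of the other experiment, in both directions for all 6 pairs (Pearson r 0.756 to 0.943). Whether each pair is the same worms or RNA sequenced in both experiments is not stated in the sources used here. The 2 wild-type groups were therefore not read as independent of each other, and no value was compared across the experiments.

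Of the 72 comparisons of a member with wild-type worms (9 genes in 8 mutants), 11 passed a false discovery rate of 0.05 over all genes (limma, two-sided), 7 of them higher and 4 lower in the mutant. These calls fell on 6 of the 9 genes and on 5 of the 8 mutants. *dct-1* was higher in 3 mutants, *drp-1* was higher in 2, and *fzo-1* and *fis-2* were each higher in 1, while *eat-3* and *miro-1* were each lower in 2. *fis-1*, *pink-1* and *pdr-1* passed in no mutant by limma. The largest change was that of *dct-1* in *prdx-2* worms, at 2.91-fold of the wild-type level.

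By strain, the members' counts stood beside wide responses of the whole transcriptome. In *nuo-6* worms 3 members were higher and 1 was lower, where 22.5% of all genes were higher and 14% lower. In *daf-2* worms 1 member was higher and 2 were lower, against 17.4% of all genes higher and 16.3% lower. In *isp-1* worms 1 member was higher and none lower, against 11% and 10.3% of all genes. In *prdx-2* worms 2 members were higher and none lower, where 6.51% of all genes were higher and 6.51% lower. In *sod-1* worms 1 member was lower and none higher, where 0.606% of all genes were higher and 1.96% lower. With 9 genes, counts of 1 to 4 do not set the members apart from these shares.

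No member passed in the other 3 mutants by limma, where the shares of all genes called higher and lower were 6% and 2.27% in *clk-1* worms, 1.05% and 1.57% in the libraries labelled *ctl-1*, and 2.34% and 0.692% in *sod-2* worms. At an unadjusted p below 0.05 there was 1 member in *clk-1* worms (*drp-1*), 0 in the libraries labelled *ctl-1* and 0 in *sod-2* worms, and both edgeR and DESeq2 on the recovered reads called 0 members in each of the 3. The median log2 fold change of the 9 members was 0.14 in *clk-1*, 0.19 in *isp-1*, 0.25 in *nuo-6*, -0.11 in *daf-2*, -0.05 in *sod-1*, 0.04 in the libraries labelled *ctl-1*, 0.14 in *prdx-2* and -0.04 in *sod-2* worms. The median over all genes lay between -0.02 and 0.02 in every comparison.

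**Figure D1:**
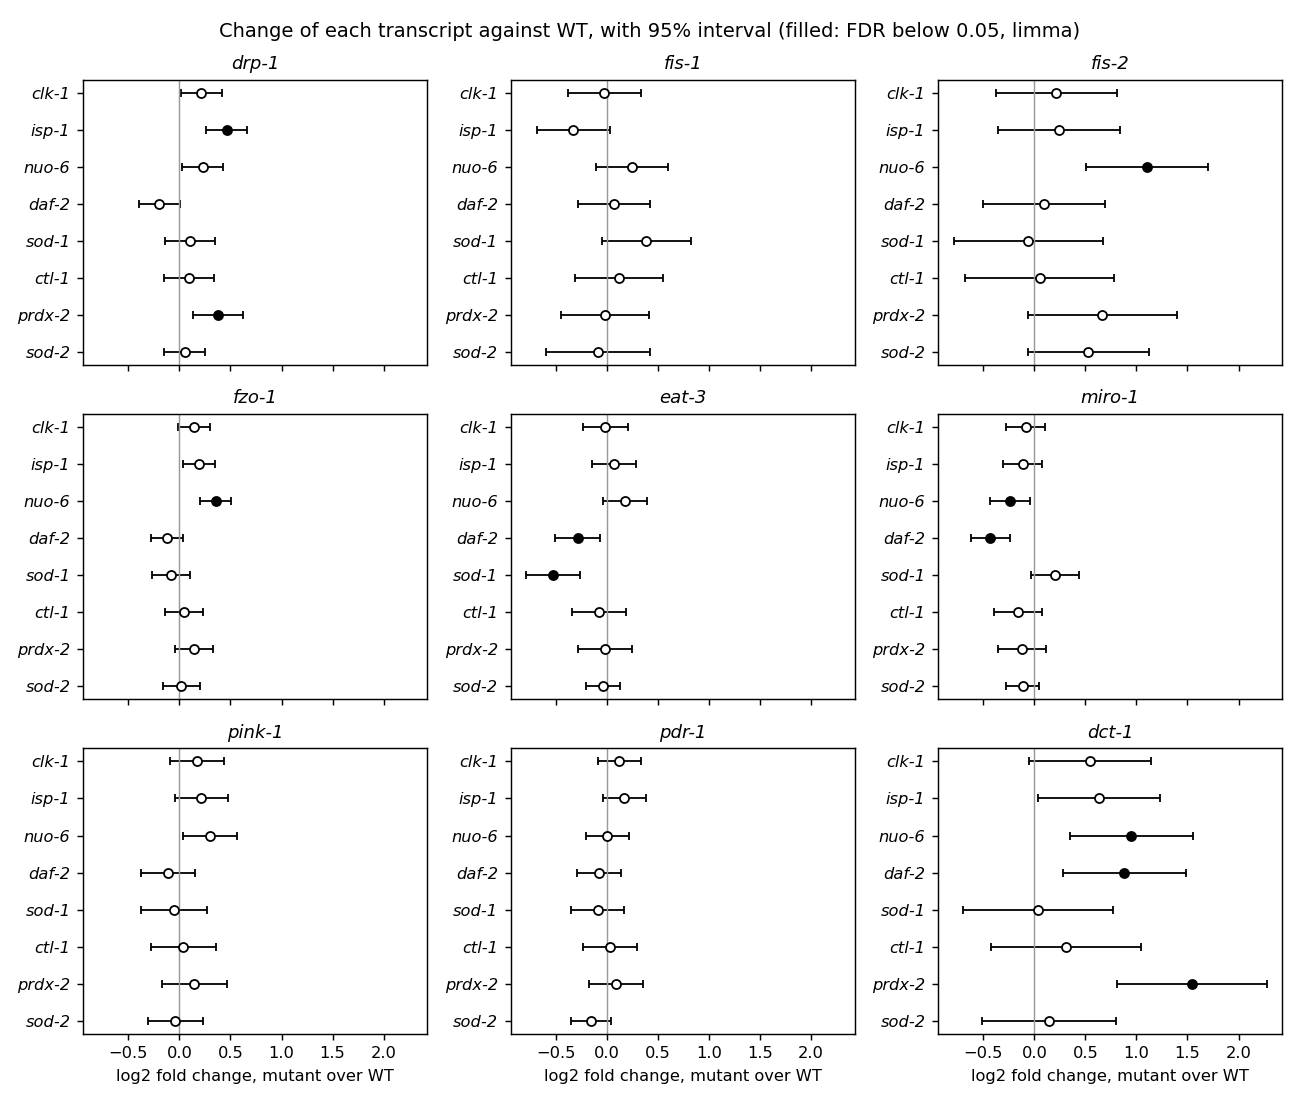
Log2 fold change of each of the 9 transcripts in each mutant over wild-type worms (x axis), with 1 panel per gene and 1 line per mutant, on the scale of log2(normalized CPM + 0.5). Points are limma estimates with 95% intervals and filled points passed a false discovery rate of 0.05 (11 of 72). The filled points of *dct-1* lie between 0.88 and 1.54, and the intervals of *fis-2* and *dct-1* are the widest.

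The 9 transcripts differed in their level per length and in how steady they were. In wild-type worms of the first experiment, divided by the length of their merged exons, *drp-1* measured 45.5 and *eat-3* 42.4 normalized CPM per kb, *pdr-1* 32.4, *fzo-1* 30.8, *miro-1* 25.5, *pink-1* 19.9 and *fis-2* 19.9, while *fis-1* (9.95) and *dct-1* (6.96) were lowest. The coefficient of variation over the 6 wild-type libraries was 3.29% to 12.1% for the 5 transcripts highest per kb, lowest for *miro-1*, and 13.9% for *pink-1*, 23.3% for *fis-1*, 31.7% for *dct-1* and 43.4% for *fis-2*, the 4 lowest per kb. Reads behind these values were lowest for *fis-1*, with 61 to 217 reads per library, against 1407 to 4395 for *drp-1*, *fzo-1* and *eat-3*, so counting error is relatively largest for *fis-1*. When the 8 strains of the first experiment were ordered by their mean for each gene, the ranges of neighbouring strains overlapped in all 63 neighbouring pairs, so the order is a description.

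**Figure D2:**
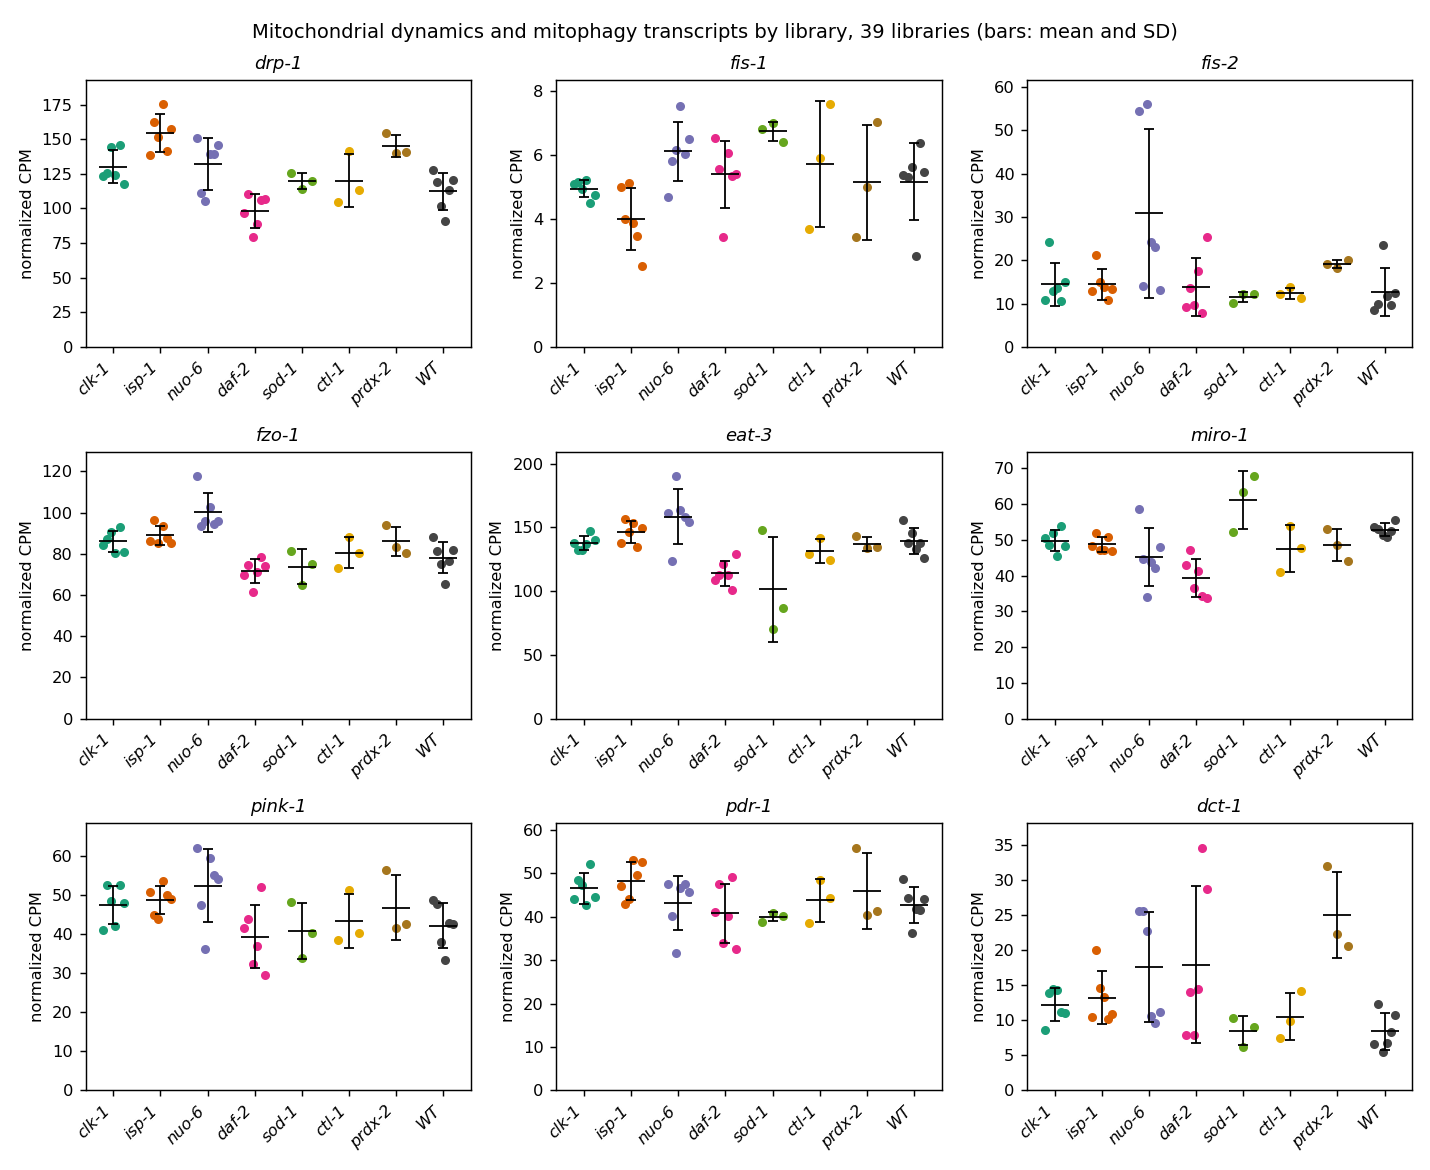
Normalized CPM (y axis, from 0) of the 9 transcripts in each of the 39 libraries of the first experiment, by strain, with each replicate as a point and the mean and SD as bars. All *isp-1* points of *drp-1*, all *nuo-6* points of *fzo-1* and all *prdx-2* points of *dct-1* lie above every wild-type point, and all *daf-2* points of *miro-1* lie below. The strain marked ctl-1 is known by its label only.

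Among the division genes, *drp-1* (WBGene00001093, WBcel235 chromosome IV, 5538488 to 5541365, plus strand), which encodes the GTPase that constricts mitochondria, rose in *isp-1* and *prdx-2* worms. Its lowest, median and highest values were 139, 155 and 175 normalized CPM in *isp-1* worms, against 91.0, 116.2 and 128 in wild-type worms. All 6 *isp-1* libraries lay above all wild-type libraries, as did those of 7.69% of all genes. The log2 fold change was 0.46 (SE 0.10, adjusted p = 0.000768), or 1.38-fold. In *prdx-2* worms the 3 libraries had 155, 140 and 141 normalized CPM of *drp-1*, also above every wild-type library, a separation seen in 9.43% of all genes. This log2 fold change was 0.38 (SE 0.12, adjusted p = 0.0342). In the same *prdx-2* libraries 5 body wall muscle genes, against which *drp-1* ran within strains (Pearson r = -0.716), summed to 8478, 8433 and 8888 normalized CPM, against 9603 to 17410 in wild-type worms. The 6 yolk protein genes summed to 8737 to 29300 in *prdx-2* worms (median 10290), against 24960 to 44580 in wild-type worms. With these *drp-1* moved in the same direction within strains (Pearson r = 0.489), as it did with 10 oocyte and eggshell genes (0.720). The oocyte and eggshell genes summed to 3200 to 5923 in *prdx-2* worms (median 3322), against 1899 to 4864 in wild-type worms (median 3759). The part of these 3 sets of genes in the result was not tested. The *prdx-2* call of *drp-1* was lost without any single *prdx-2* library or without wild-type replicate 9 or 10 (adjusted p 0.0697 to 0.168).

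In *nuo-6* worms *drp-1* ranged from 105 to 151 normalized CPM (median 139.5), against 91.0 to 128 in wild-type worms, and 4 of the 6 *nuo-6* libraries lay above all wild-type libraries. The log2 fold change of 0.23 had an adjusted p of 0.0667, and it passed without wild-type replicate 7 (0.0425), *nuo-6* replicate 2 (0.0321) or *nuo-6* replicate 3 (0.0197). *clk-1* worms had 118, 125 and 146 normalized CPM of *drp-1* as lowest, median and highest values (log2 fold change 0.22, 95% interval 0.02 to 0.42, adjusted p = 0.191). *daf-2* worms had the lowest mean of *drp-1*, with 79.1 to 110.5 normalized CPM (median 101), against 91.0 to 128 in wild-type worms (log2 fold change -0.20, adjusted p = 0.122), and without wild-type replicate 10 this difference passed (-0.26, adjusted p = 0.0435). In *sod-1* worms and the libraries labelled *ctl-1* the log2 fold changes of *drp-1* were 0.10 and 0.09 (adjusted p 0.795 and 0.78).

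*fis-1* (WBGene00001424, chromosome II, 6755174 to 6755965, plus strand) passed in no mutant. Its 3 *sod-1* values of 6.83, 6.99 and 6.40 normalized CPM nevertheless lay above all 6 wild-type values, which had a lowest of 2.84, a median of 5.43 and a highest of 6.37. Such a separation held for 2.69% of all genes in this comparison, and the log2 fold change of 0.39 had an adjusted p of 0.439. At the other end, *isp-1* worms had 2.54, 3.93 and 5.14 normalized CPM of *fis-1* (log2 fold change -0.33, adjusted p = 0.186), and this difference passed once wild-type replicate 10, the lowest wild-type library, was left out (-0.47, adjusted p = 0.038). Across the 39 libraries *fis-1* moved with the summed level of 30 sperm protein genes (Pearson r = 0.688, and 0.535 within strains). These genes summed to 1519, 1860 and 1862 normalized CPM in the *sod-1* libraries and to 607 to 928 (median 865) in *isp-1* worms, against 746 to 1529 (median 1244) in wild-type worms. The part of sperm RNA in the *fis-1* values was not tested.

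*fis-2* (WBGene00001425, chromosome X, 8283275 to 8285219, minus strand) was the most variable of the division genes, and it rose in *nuo-6* worms. Its 6 *nuo-6* values were 54.6, 14.1, 56.1, 24.2, 23.1 and 13.2 normalized CPM for replicates 1 to 6, against 8.58 to 23.4 (median 10.8) in wild-type worms. Replicates 1 and 3 were the highest of all libraries of this experiment, 3 of the 6 *nuo-6* libraries lay above all wild-type libraries, and the ranges overlapped. The log2 fold change was 1.11 (SE 0.29, adjusted p = 0.0032), or 2.15-fold, and it stayed between 0.89 and 1.30 when any 1 library was left out (adjusted p at most 0.0154). *prdx-2* worms had 19.2, 18.3 and 20.0 normalized CPM of *fis-2*, which is above 5 of the 6 wild-type values but below wild-type replicate 9 (23.4), with a log2 fold change of 0.66 (95% interval -0.07 to 1.39, adjusted p = 0.236). In the other mutants of the first experiment the adjusted p of *fis-2* was 0.616 or higher. *fis-2* moved with the summed level of 5 neuronal genes across the 39 libraries (Pearson r = 0.711, and 0.617 within strains), which reached 318, 316 and 399 normalized CPM in *nuo-6* replicates 1, 2 and 3 and ranged from 190 to 262 in wild-type worms, and their part in the result was not tested. The annotated exons of *fis-2* share 27 bases with *ksr-1* on the opposite strand.

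Of the fusion genes, *fzo-1* (WBGene00001509, chromosome II, 5833328 to 5836203, minus strand), the outer membrane mitofusin, rose in *nuo-6* worms. It had 93.4, 96.1 and 118 normalized CPM as lowest, median and highest values in *nuo-6* worms, against 65.6, 79.0 and 88.1 in wild-type worms. The 2 ranges did not overlap, which held in the same direction for 9.38% of all genes. The log2 fold change was 0.36 (SE 0.08, adjusted p = 0.000336), or 1.28-fold, and the call was kept under each alternative and without each library. Over 39 libraries *fzo-1* moved with the sum of 6 yolk protein genes (Pearson r = 0.542, and 0.446 within strains). This sum was 9006 to 97070 normalized CPM in *nuo-6* worms (median 65360), against 24960 to 44580 in wild-type worms. Within strains *fzo-1* followed 10 oocyte and eggshell genes (0.740) and ran against 5 body wall muscle genes (-0.747). Their *nuo-6* medians were 3089 and 15480, against 3759 and 11800 in wild-type worms. The part of these genes was not tested. *isp-1* worms had 85.2 to 96.3 normalized CPM of *fzo-1* (median 87.0), with a log2 fold change of 0.19 and an adjusted p of 0.0673, which passed without wild-type replicate 7 (0.0363). *daf-2* worms had the lowest mean, with 61.3 to 78.7 normalized CPM (median 72.7, log2 fold change -0.12, adjusted p = 0.215).

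*eat-3* (WBGene00001134, chromosome II, 9324874 to 9329665, plus strand), the inner membrane fusion GTPase, was called lower in *daf-2* and *sod-1* worms. *daf-2* worms had 101, 113 and 129 normalized CPM as lowest, median and highest values, against 126, 138 and 156 in wild-type worms. In 5 of the 6 *daf-2* libraries the value lay below every wild-type value, and the log2 fold change was -0.29 (SE 0.11, adjusted p = 0.035). It rests on a narrow margin, because leaving out wild-type replicate 7, 8 or 9 or *daf-2* replicate 1, 4 or 5 gave an adjusted p of 0.0506 to 0.085, with log2 fold changes of -0.29 to -0.25.

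In *sod-1* worms *eat-3* measured 148 normalized CPM in replicate 1, 70.1 in replicate 2 and 86.5 in replicate 3, against 126 to 156 in wild-type worms. Replicates 2 and 3 had the lowest *eat-3* values of all 39 libraries while replicate 1 lay inside the wild-type range. The log2 fold change was -0.53 (SE 0.13, adjusted p = 0.0201). The call was lost with edgeR (adjusted p = 0.0779), with DESeq2 (0.0775) and in a fit of *sod-1* and wild-type libraries alone (0.331). Without replicate 2 the log2 fold change was -0.30 (adjusted p = 0.523), without replicate 3 it was -0.45 (0.302), and without replicate 1 it was -0.83 (1.35e-06). The autophagy gene *epg-5*, needed in late steps of autophagy, followed the same libraries, with 36.3, 19.5 and 20.3 normalized CPM in *sod-1* replicates 1 to 3, against 32.9 to 41.0 in wild-type worms, and its call was likewise lost without replicate 2 or 3. In the remaining mutants of the first experiment *eat-3* had log2 fold changes between -0.08 and 0.18, none of which passed.

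The balance of *fzo-1* over *drp-1*, taken within each library as the log2 ratio of their values, lay below the wild-type range in 3 mutants. Its mean was -0.79 ± 0.10 in *isp-1* (SD, n = 6), -0.75 ± 0.04 in *prdx-2* (n = 3), -0.70 ± 0.10 in *sod-1* (n = 3) and -0.39 ± 0.18 in *nuo-6* worms (n = 6), against -0.52 ± 0.05 in wild-type worms (n = 6). All *isp-1* ratios (-0.91 to -0.68), all *prdx-2* ratios (-0.80 to -0.71) and all *sod-1* ratios (-0.81 to -0.62) lay below the wild-type range of -0.56 to -0.43, while the *nuo-6* ratios (-0.60 to -0.13) overlapped it. The log2 ratio of *pink-1* over *pdr-1* was 0.27 ± 0.08 in *nuo-6* worms (0.19 to 0.38) and -0.03 ± 0.16 in wild-type worms (-0.33 to 0.10), with no overlap. The log2 ratio of *eat-3* over *drp-1* also lay below the wild-type range (0.065 to 0.548) in *isp-1* (-0.195 to -0.014) and *prdx-2* worms (-0.111 to -0.064). It overlapped that range in *sod-1* worms (-0.700 to 0.235) and the other mutants of the first experiment. For *fis-2* over *fis-1* every mutant overlapped wild-type worms. These ratios are a description and were not tested, and how often ratios of other gene pairs lie apart was not examined.

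*miro-1* (WBGene00019544, chromosome IV, 4712825 to 4715807, minus strand), the transport adaptor, was the steadiest transcript in wild-type worms and fell in *daf-2* worms. Its lowest, median and highest values were 33.6, 38.9 and 47.1 normalized CPM in *daf-2* worms, against 50.8, 52.8 and 55.7 in wild-type worms. All 6 *daf-2* libraries lay below all wild-type libraries, as did those of 6.78% of all genes. The log2 fold change was -0.43 (SE 0.09, adjusted p = 0.000474), or 0.741-fold, and it stayed between -0.49 and -0.39 when any 1 library was left out.

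*nuo-6* worms had *miro-1* values of 58.6, 44.7, 34.1, 43.9, 42.1 and 48.1 normalized CPM in replicates 1 to 6. In 5 of these libraries the value lay below every wild-type value and in 1 it lay above (log2 fold change -0.24, SE 0.09, adjusted p = 0.0439). The call was lost with edgeR (0.0594), in a fit of *nuo-6* and wild-type libraries alone (0.128), and without *nuo-6* replicate 2, 3, 4 or 5 or wild-type replicate 7, 8, 9, 11 or 12 (0.0526 to 0.161). *sod-1* worms had the highest mean of *miro-1*, with 52.1, 63.5 and 67.9 normalized CPM, of which 2 lay above all wild-type values (log2 fold change 0.20, adjusted p = 0.463). Across the 39 libraries *miro-1* moved with the summed level of 5 germline genes (Pearson r = 0.524, and 0.252 within strains). These genes summed to 1444 to 1601 normalized CPM in *daf-2*, 1041 to 1417 in *nuo-6* and 1873 to 2162 in *sod-1* worms, against 1649 to 2199 in wild-type worms, so the *daf-2* and *nuo-6* ranges lay below the wild-type range, and their part in the *miro-1* results was not tested. *miro-1* also ran against the sums of 5 neuronal genes (-0.508, and -0.329 within strains) and 5 body wall muscle genes (-0.285 and -0.370). The part of these genes was not tested either. In *clk-1*, *isp-1*, *prdx-2* and the libraries labelled *ctl-1* the log2 fold changes of *miro-1* lay between -0.16 and -0.09 and did not pass.

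Of the mitophagy genes, *pink-1* (WBGene00017137, chromosome II, 5393293 to 5395694, minus strand) and *pdr-1* (WBGene00003967, chromosome III, 13771513 to 13773345, plus strand) passed in no mutant by limma. *pink-1* came closest in *nuo-6* worms, with 36.2, 54.5 and 62.1 normalized CPM as lowest, median and highest values, against 33.2, 42.7 and 48.8 in wild-type worms. In 4 of 6 *nuo-6* libraries it lay above every wild-type value (log2 fold change 0.30, 95% interval 0.04 to 0.56, adjusted p = 0.0658). It passed without *nuo-6* replicate 3 (0.40, adjusted p = 0.0112) or without wild-type replicate 7 (0.35, adjusted p = 0.0473). *pdr-1*, in the same *nuo-6* libraries, had 31.7 to 47.6 normalized CPM (median 46.2), against 36.2 to 48.7 (median 43.0) in wild-type worms, a log2 fold change of 0.01 with a 95% interval of -0.21 to 0.22. Over all 8 mutants the log2 fold changes ran from -0.11 to 0.30 for *pink-1* and from -0.16 to 0.17 for *pdr-1*. The annotated exons of *pdr-1* share 107 bases with *mdt-29* on the same strand, and what this overlap does to the *pdr-1* count was not tested.

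*dct-1* (WBGene00015776, chromosome X, 7954354 to 7956225, plus strand), the mitophagy receptor, was called in more mutants than any other member, and its mean was lowest in wild-type worms among the 8 groups of the first experiment. In *prdx-2* worms it had 32.0, 22.3 and 20.6 normalized CPM, against 5.46, 7.59 and 12.4 as lowest, median and highest values in wild-type worms. The groups did not overlap, which held in the same direction for 9.43% of all genes, and the log2 fold change was 1.54 (SE 0.36, adjusted p = 0.00384). In *nuo-6* worms the values were 25.6, 25.6, 22.7, 10.6, 9.66 and 11.2 normalized CPM in replicates 1 to 6. Replicates 1, 2 and 3 lay above all wild-type libraries and the other 3 lay inside the wild-type range (log2 fold change 0.95, SE 0.30, adjusted p = 0.0111). In *daf-2* worms the values were 7.89, 14.1, 7.91, 14.4, 34.6 and 28.7 normalized CPM, of which 4 lay above all wild-type libraries and replicates 5 and 6 were by far the highest (log2 fold change 0.88, SE 0.30, adjusted p = 0.0197). The *daf-2* call was lost without replicate 5 (0.65, adjusted p = 0.0739), without replicate 6 (0.70, adjusted p = 0.0681), without wild-type replicate 9 (0.78, adjusted p = 0.051) and in a fit of *daf-2* and wild-type libraries alone (adjusted p = 0.0912).

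*dct-1* was also above the wild-type mean in *isp-1* and *clk-1* worms. *isp-1* worms had 10.1, 12.1 and 19.9 normalized CPM as lowest, median and highest values (log2 fold change 0.64, 95% interval 0.04 to 1.24, adjusted p = 0.124), which passed only in a fit of *isp-1* and wild-type libraries alone (adjusted p = 0.0365). *clk-1* worms had 8.65, 12.5 and 14.5 (log2 fold change 0.55, 95% interval -0.05 to 1.15, adjusted p = 0.29). The libraries labelled *ctl-1* had 7.51, 9.87 and 14.2 normalized CPM and *sod-1* worms 10.3, 6.22 and 8.97, with log2 fold changes of 0.31 and 0.04 that did not pass. *dct-1* moved with the 5 neuronal genes as well (Pearson r = 0.613, and 0.426 within strains), whose sum was 264, 284 and 283 normalized CPM in *prdx-2* worms, against 190 to 262 in wild-type worms, and their part was not tested. Its annotated exons share 31 bases with *sfxn-2* on the opposite strand.

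In *sod-2* worms none of the 9 transcripts passed. *fis-2* had the largest estimate, with 34.6, 14.1, 12.8, 14.04, 13.6 and 11.1 normalized CPM in *sod-2* replicates 1 to 6, against 8.11, 9.37 and 19.8 as lowest, median and highest values in wild-type worms. Replicate 1 stood alone and the ranges overlapped (log2 fold change 0.53, 95% interval -0.07 to 1.12, adjusted p = 0.341). *dct-1* had 15.5, 8.99, 6.61, 7.86, 24.1 and 8.38 normalized CPM in *sod-2* replicates 1 to 6, against 6.64 to 14.3 (median 9.70) in wild-type worms (log2 fold change 0.14, 95% interval -0.51 to 0.80). For *drp-1*, *fzo-1* and *eat-3* the 95% intervals were -0.15 to 0.25, -0.16 to 0.20 and -0.21 to 0.13, and for *miro-1* the interval was -0.28 to 0.05. For *fis-1*, *pink-1* and *pdr-1* the log2 fold changes were -0.09, -0.04 and -0.16 (adjusted p 0.84, 0.869 and 0.377). The sum of 6 yolk protein genes, made by the intestine of fertile adults, ranged from 1022 to 26050 normalized CPM in *sod-2* worms, against 20790 to 46210 in wild-type worms, and what this difference contributes to the 9 values was not tested.

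**Figure D3:**
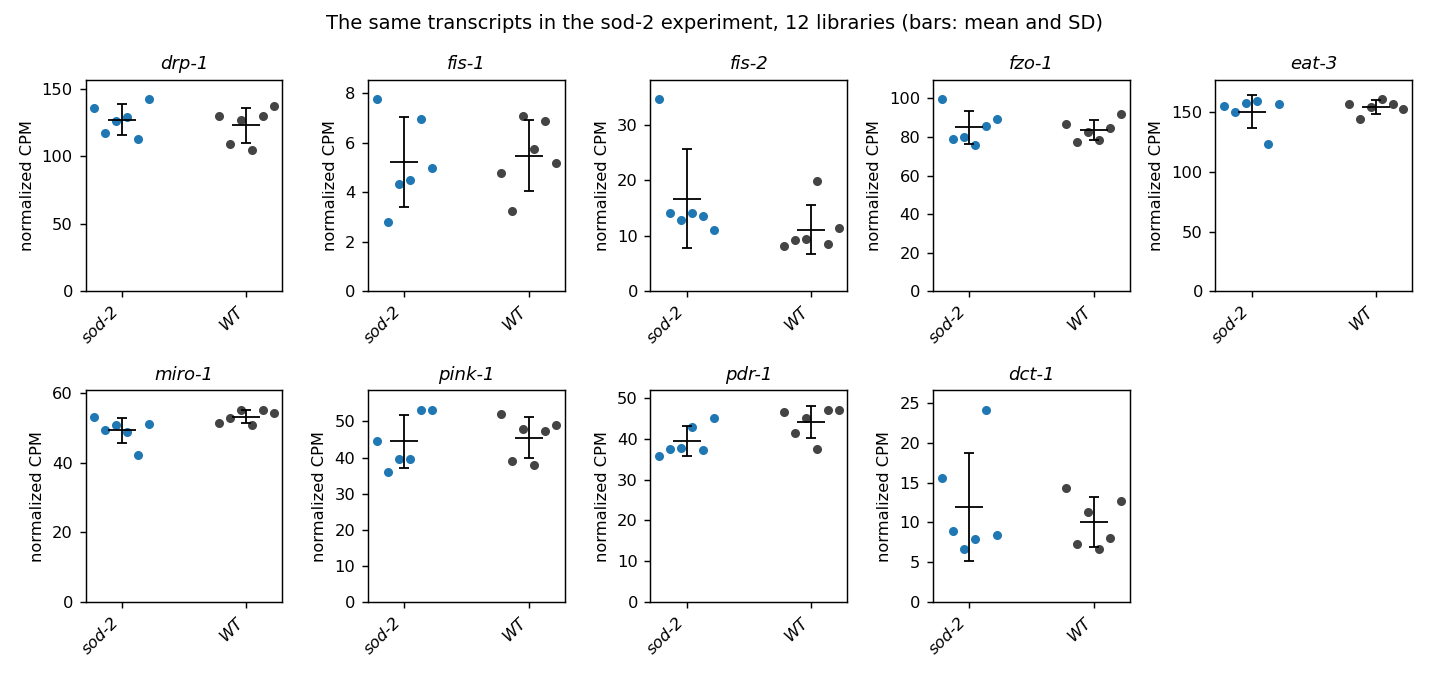
Normalized CPM (y axis, from 0) of the 9 transcripts in the 6 *sod-2* and 6 wild-type libraries of the second experiment, with each replicate as a point and the mean and SD as bars. The groups overlap for all 9 genes, and *sod-2* replicate 1 stands apart for *fis-2* at 34.6.

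Lists of related genes, also chosen with earlier results of these data known, were examined beside the members. The first holds 17 measured genes of 19 listed that shape the membranes or position mitochondria, including fission adaptors, the MICOS complex of the cristae, inner membrane proteases, prohibitins and metaxins. In *nuo-6* worms 9 of the 17 were higher and 1 was lower (median log2 fold change 0.28), in *isp-1* worms 7 were higher and 0 lower (0.18), and in *clk-1* worms 2 were higher and 0 lower (0.10). The shares of all genes called higher and lower were 22.5% and 14% in *nuo-6*, 11% and 10.3% in *isp-1*, and 6% and 2.27% in *clk-1* worms. In *daf-2* worms 0 were higher and 9 were lower (-0.30), and in *prdx-2* worms 0 were higher and 3 lower (-0.06), where 16.3% and 6.51% of all genes were lower. In *sod-1* worms, the libraries labelled *ctl-1* and *sod-2* worms none passed by limma, where 2, 4 and 4 of the 17 had an unadjusted p below 0.05. The share of all genes at that unadjusted p was not counted, here or for the members and the other lists.

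The stomatin-like gene *stl-1* was called in *daf-2* worms and in the *nuo-6*, *isp-1* and *clk-1* mutants. It had 74.6 ± 7.99 normalized CPM in *clk-1*, 89.05 ± 9.01 in *isp-1*, 98.4 ± 19.6 in *nuo-6* and 40.8 ± 2.46 in *daf-2* worms, against 51.8 ± 3.51 in wild-type worms (SD, n = 6 each). The log2 fold changes were 0.52, 0.77, 0.90 and -0.34 (adjusted p 0.000321, 2.39e-07, 5.26e-09 and 0.00592). The inner membrane protease *ymel-1* rose by 0.43 in *nuo-6*, 0.64 in *isp-1* and 0.49 in *clk-1* worms on the log2 scale. The prohibitins *phb-1* and *phb-2*, which form a ring scaffold in the inner membrane, were higher in *isp-1* (0.37 and 0.37) and *nuo-6* (0.54 and 0.36) and lower in *daf-2* worms (-0.50 and -0.51), although both *isp-1* calls and the *nuo-6* call of *phb-2* were lost at a false discovery rate of 0.01 and without each of several single libraries. *mff-2*, a relative of the fission factor that recruits mammalian DRP1, was higher in *isp-1* (0.78, adjusted p = 0.00153) and lower in *daf-2* worms (-0.56, adjusted p = 0.013). *mtp-18*, whose mammalian relative acts in fission at the inner membrane, was higher in *nuo-6* (0.82, adjusted p = 0.00372) and lower in *daf-2* worms (-0.64, adjusted p = 0.0229). The MICOS gene *immt-1* rose in *nuo-6* worms (0.76, adjusted p = 5.21e-05) and fell in *prdx-2* worms (-0.51, adjusted p = 0.0413), while *immt-2* fell in *nuo-6* worms (-0.28, adjusted p = 0.026). The *immt-1* call in *prdx-2* worms was lost without any single *prdx-2* library or wild-type replicate 8, 9, 10 or 11, that of *immt-2* without *nuo-6* replicate 3 or wild-type replicate 8 or 11, and that of *mtp-18* in *daf-2* worms without *daf-2* replicate 5 or 6 or wild-type replicate 9. These 3 calls were also lost with the mutant and wild-type libraries alone.

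The second list holds 14 measured genes of 15 listed that act as mitophagy receptors or build autophagosomes. In *nuo-6* worms 8 were higher and 0 lower (median log2 fold change 0.43), in *daf-2* worms 5 were higher and 1 lower (0.39), in *prdx-2* worms 3 were higher and 0 lower (0.36), and in *isp-1* worms 1 was higher and 0 lower (0.16). Of all genes, 22.5% were called higher in *nuo-6*, 17.4% in *daf-2*, 6.51% in *prdx-2* and 11% in *isp-1* worms. In *sod-1* worms 0 were higher and 1 was lower (-0.03), where 1.96% of all genes were lower. None passed by limma in *clk-1* worms, the libraries labelled *ctl-1* and *sod-2* worms, where 4, 2 and 0 of the 14 had an unadjusted p below 0.05.

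The largest changes of this list were those of *sqst-1*, the worm p62, which carries ubiquitinated cargo to autophagosomes. It had 309, 238 and 304 normalized CPM in *prdx-2* worms (log2 fold change 1.89, adjusted p = 0.00909). The values in *nuo-6* replicates 1 to 6 were 471, 325, 861, 148, 128 and 127 (1.78, adjusted p = 0.00069). Replicates 5 and 6 thus lay inside the wild-type range. In *daf-2* worms *sqst-1* ranged from 116.5 to 591 normalized CPM, with a median of 200 (1.62, adjusted p = 0.00202), against 44.3 to 129 in wild-type worms, with a median of 69.98. The ubiquitin-like *lgg-1* and *lgg-2*, which coat autophagosome membranes, rose with *sqst-1* in *nuo-6* (0.70 and 0.88) and *daf-2* worms (0.72 and 0.70), and *lgg-1* also rose in *prdx-2* worms (0.90, adjusted p = 0.0274). The *nuo-6* rise of *lgg-1* lay in replicates 1, 2 and 3 (631, 448 and 676 normalized CPM). Replicates 4, 5 and 6 (327, 295 and 259) lay inside the wild-type range of 199 to 368. The *lgg-2* values in *nuo-6* replicates 1 to 6 were 197.4, 132.5, 281.1, 97.5, 83.1 and 80.0, against 59.2 to 90.5 in wild-type worms. The *lgg-1* calls were lost without *nuo-6* replicate 3, without *daf-2* replicate 6 and without *prdx-2* replicate 1 or 3 or wild-type replicate 10, and the *lgg-2* call in *daf-2* worms without *daf-2* replicate 5 or 6 or wild-type replicate 7, 9 or 10. *allo-1*, the adaptor that marks paternal mitochondria for autophagy, was higher in *prdx-2* (1.53, adjusted p = 3.16e-05), *nuo-6* (0.83, adjusted p = 0.000922) and *isp-1* worms (0.65, adjusted p = 0.0154), where it was lost without *isp-1* replicate 2. Its values in *nuo-6* replicates 1 to 6 were 173, 152, 139, 101, 92.6 and 91.3 normalized CPM, against 53.4 to 96.7 in wild-type worms. *hlh-30*, the worm TFEB, rose in *daf-2* worms (0.68, adjusted p = 0.00373), whereas *fndc-1*, a mitophagy receptor related to mammalian FUNDC1, fell there (-0.30, adjusted p = 0.0396), a call that was lost without *daf-2* replicate 1 or 3 or wild-type replicate 7, 11 or 12. The *daf-2* calls of *lgg-2* and *fndc-1* were also lost with *daf-2* and wild-type libraries alone.

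**Figure D4:**
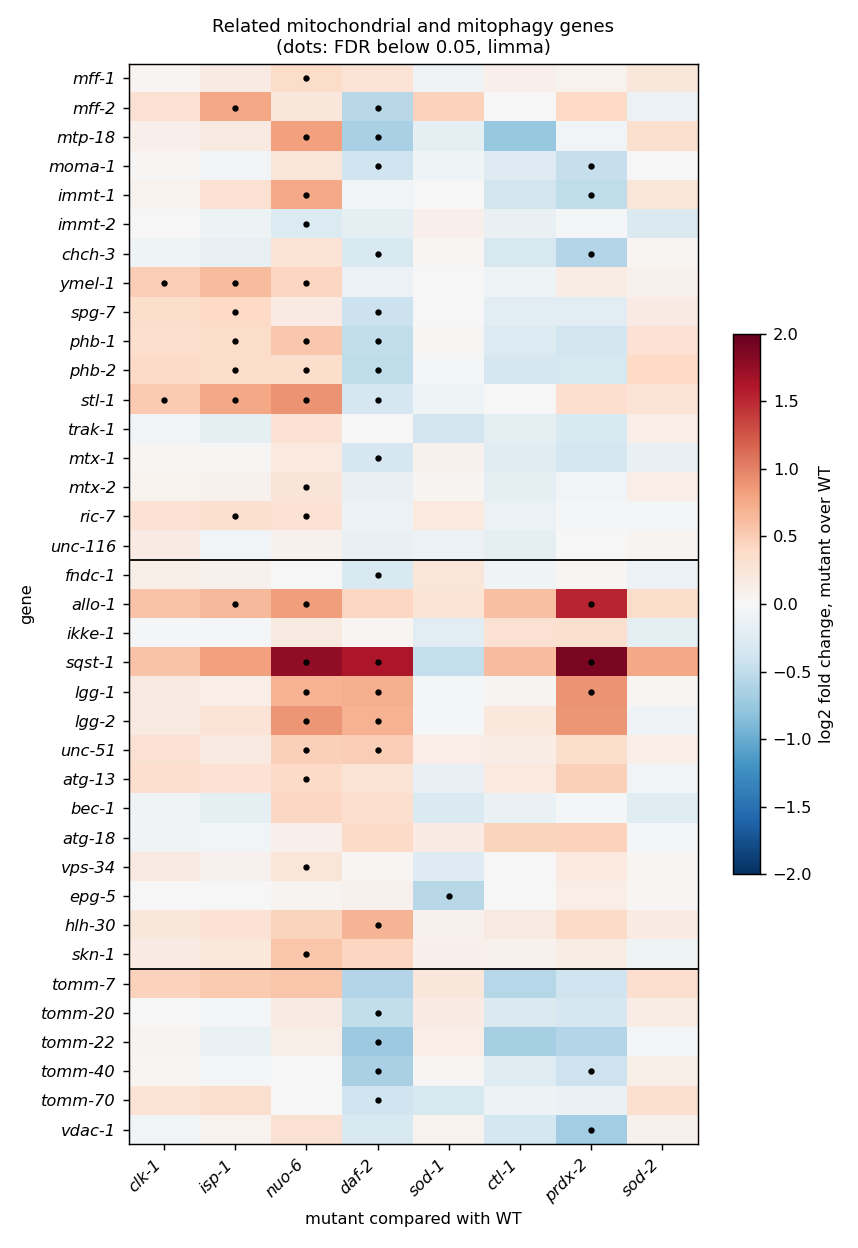
Log2 fold change (colour, limited to 2 in either direction) of the 37 measured genes of the 3 lists (rows) in each of the 8 mutants over wild-type worms (columns), with horizontal lines between the lists and dots where limma passed a false discovery rate of 0.05. *sqst-1* is the darkest row, at 1.78, 1.62 and 1.89 in *nuo-6*, *daf-2* and *prdx-2*, and the *daf-2* column is blue for 15 of the 17 genes of the first list.

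The third list holds 6 genes of the outer membrane, 5 subunits of the TOM import complex and the channel *vdac-1*. In *daf-2* worms 4 were lower and 0 higher (median log2 fold change -0.53), namely *tomm-20* (-0.49), *tomm-22* (-0.72), *tomm-40* (-0.66) and *tomm-70* (-0.40), where 16.3% of all genes were lower. The *tomm-70* call was lost without *daf-2* replicate 4 or 5 or wild-type replicate 10. In *prdx-2* worms 2 were lower and 0 higher (-0.41), *tomm-40* (-0.41, adjusted p = 0.0268) and *vdac-1* (-0.69, adjusted p = 0.0151), where 6.51% of all genes were lower. The *tomm-40* call was lost without any single *prdx-2* library or wild-type replicate 10, and the *vdac-1* call without *prdx-2* replicate 1 or 3. *vdac-1* had 614 ± 35.8 normalized CPM in *prdx-2* worms (SD, n = 3), against 1004 ± 190 in wild-type worms (SD, n = 6). In the other 6 mutants none of the 6 genes passed by limma, and 0, 2, 1, 0, 1 and 1 had an unadjusted p below 0.05 in *clk-1*, *isp-1*, *nuo-6*, *sod-1*, the libraries labelled *ctl-1* and *sod-2* worms. Of the 56 calls on the 3 lists, 27 were kept under every alternative and without each library, among them those of *stl-1*, *ymel-1* and *sqst-1*, and 29 were lost under at least 1. All mutants of the first experiment share the same 6 wild-type libraries, so calls of 1 gene in several mutants are not independent of each other.

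Across the 39 libraries the members did not move as 1 group. *pink-1* and *pdr-1* moved most alike (Pearson r = 0.795, and 0.847 within strains), followed by *fzo-1* and *pink-1* (0.791), *drp-1* and *fzo-1* (0.758) and *drp-1* and *pink-1* (0.714). *fis-1* had coefficients between -0.268 (with *pdr-1*) and 0.083 (with *fis-2*), and *dct-1* reached 0.433 with *fis-2* and 0.429 with *fzo-1*. Within strains *drp-1* and *fzo-1* also followed the summed level of 10 oocyte and eggshell genes (0.720 and 0.740) and ran against that of 5 body wall muscle genes (-0.716 and -0.747). The points share library preparation and their normalization, and strain differences enter the values across all libraries, so the coefficients are descriptions.

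Among 13865 genes with a mean of at least 1, the genes whose levels followed each member most closely over the 39 libraries differed from member to member. For *drp-1* they were C47E12.2 (Pearson r = 0.906) and Y32H12A.7 (0.899), for *fzo-1* K03B4.1 (0.873) and *fbxa-153* (0.859), and for *eat-3* *prpf-4* (0.850) and *cpsf-2* (0.842). By rank these *eat-3* pairs were less alike (Spearman 0.628 and 0.670). The part of the *sod-1* libraries with the lowest *eat-3* values in these coefficients was not tested. For *fis-1* they were *decr-1.3* (0.874) and C50F4.10 (0.865), and for *fis-2* C01A2.4 (0.934) and *nipi-3* (0.898). For *miro-1* they were Y54G11A.2 (0.926) and *repo-1* (0.904), for *pink-1* C06E1.9 (0.874) and ZK1248.13 (0.853), and for *pdr-1* C42C1.13 (0.837) and ZK177.4 (0.831). For *dct-1* they were *coel-1* (0.894) and B0546.4 (0.870), and the third was *lgg-1* of the autophagosome list (0.868, and 0.836 within strains). The third for *drp-1* was also a list gene, *mff-2* of the first list (0.891, and 0.792 within strains). In the libraries with the highest *dct-1*, *lgg-1* was also high: it had 631, 448 and 676 normalized CPM in *nuo-6* replicates 1, 2 and 3 and 614 and 735 in *daf-2* replicates 5 and 6, against 199 to 368 in wild-type worms.

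**Figure D5:**
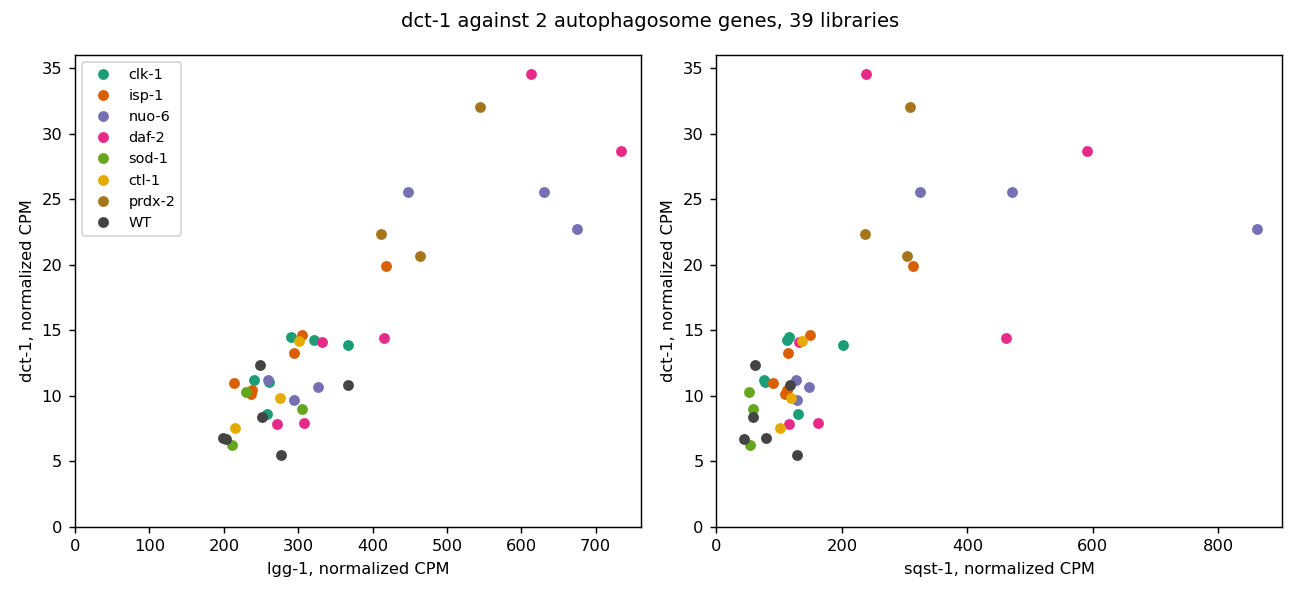
Normalized CPM of *dct-1* (y axis) against that of *lgg-1* (left, x axis) and *sqst-1* (right, x axis), with 1 point per library of the first experiment, coloured by strain. The *prdx-2* libraries, *nuo-6* replicates 1, 2 and 3 and *daf-2* replicates 5 and 6 lie to the upper right, with *dct-1* at 20.6 to 34.6, apart from the wild-type libraries at 5.46 to 12.4. On the right, *daf-2* replicate 4 (*sqst-1* 462, *dct-1* 14.4) and *isp-1* replicate 2 (313 and 19.9) also exceed every wild-type *sqst-1* value.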

How the data were processed

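RNA sequencing of 51 whole-worm libraries was used. The authors assessed reads with FastQC 0.11.5, aligned them to WBcel235 with STAR 2.5.2b, counted them per gene with STAR and normalized and tested them with edgeR 3.20.1 in R 3.4.1. The strand setting is not given in the sources used here. The deposited signal of both main tables is normalized CPM after a filter on genes. At least 99.97% of the values of each library were whole multiples of 1 read (tolerance 0.05 read), so whole reads were recovered. Another deposited table, though named CPM, gives an unnormalized read count for each gene in the 12 *sod-2* experiment libraries, and was tested with edgeR as an alternative.

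For every mutant, a contrast against wild-type of the same table was tested two-sided on log2(value + 0.5) with limma 3.58.1 under R 4.3.3, using lmFit and a trended eBayes, with all groups of a table fitted together and no covariates. A gene was called when its p-value, adjusted over the whole table by the Benjamini-Hochberg method, was below 0.05, whatever its fold change. Fold changes are on that scale, and adding 0.5 understates changes of low genes. Alternatives were pseudocounts of 0.1 and 1, a mean of at least 1, edgeR 4.0.16 and DESeq2 1.42.0 on recovered reads, a false discovery rate of 0.01, each mutant with wild-type alone, leaving out each library, and, for *sod-2*, a replicate block and the count table. The fits were tested on simulated data. Between 61 and 4395 reads lay behind a member's value in a library of the first experiment. Replicates are biological replicates by the labels, and no pair of libraries of a group was as alike as counting noise alone would make it (chi-square per degree of freedom at least 14.2).

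The members and lists were chosen with earlier results of these data known. All members are named in every comparison. Of the lists, any gene called in at least 1 comparison may be named, first those with the largest changes. The mutated genes, and the 2 genes most like each member by Pearson correlation over 39 libraries, are also named, with the third where it belongs to a list. *epg-5* is such a called gene. Gene positions are from Ensembl release 115 (WBcel235), and lengths are merged exons.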

Additional observations from a re-analysis of the deposited data

Results flagged for a closer look

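In 6 of the 63 groups of 6 libraries (9 genes in 7 groups), 1 library lay so far from the others that its gap to the nearest value passed Dixon's 95% limit, given as a share of the group's range. Chance alone flags about 5% of such groups. For *fis-2* these were *clk-1* replicate 2 (24.13 normalized CPM, next 14.9), wild-type replicate 9 (23.41, next 12.47), *sod-2* replicate 1 (34.62, next 14.11) and wild-type replicate 4 of the *sod-2* experiment (19.83, next 11.33). The 2 wild-type libraries with high *fis-2* are 1 of the 6 pairs of wild-type libraries that matched best between the experiments (replicates 9 and 4, Pearson r = 0.943). For *fis-1*, wild-type replicate 10 was low (2.844, next 5.323). Its best match in the other experiment was replicate 2, which had the lowest wild-type *fis-1* value there (3.225). For *eat-3*, *sod-2* replicate 5 was low (123.9, next 150.7).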

How the results depend on the processing

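Of the 11 calls of single members, 5 were kept under every alternative tried and without each library in turn: *drp-1* in *isp-1*, *fzo-1* and *fis-2* in *nuo-6*, *miro-1* in *daf-2* and *dct-1* in *prdx-2* worms. No called member changed sign. At a false discovery rate of 0.01 the number of members called was 2 instead of 4 in *nuo-6*, 1 instead of 3 in *daf-2*, 0 instead of 1 in *sod-1* and 1 instead of 2 in *prdx-2* worms. With the mutant and wild-type libraries alone it was 2 instead of 1 in *isp-1*, 3 instead of 4 in *nuo-6*, 2 instead of 3 in *daf-2*, 0 instead of 1 in *sod-1* and 1 instead of 2 in *prdx-2* worms. In *sod-1* worms edgeR and DESeq2 each called 0 members. Leaving out 1 library gave 1 to 2 members in *isp-1*, 3 to 5 in *nuo-6*, 1 to 4 in *daf-2*, 0 to 1 in *sod-1*, 1 to 2 in *prdx-2*, and 0 in *clk-1*, *sod-2* and the libraries labelled *ctl-1*. The fits of mutant and wild-type libraries alone left the log2 fold changes as they were and took the spread from fewer libraries. Apart from these fits and the stricter threshold, the cause of the changed counts was not tested. With the mutant and wild-type libraries alone, 1542 higher and 1451 lower genes became 1973 and 2083 in *isp-1* worms. The counts also rose in *clk-1* worms and the libraries labelled *ctl-1*. In *nuo-6* worms 3151 and 1959 became 2674 and 1624, and the counts also fell in *daf-2*, *sod-1* and *prdx-2* worms.

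Counts over all genes moved most in *sod-1* worms, where 85 higher and 275 lower genes became 74 and 150 with edgeR, 32 and 22 with *sod-1* and wild-type libraries alone, and 39 and 112 at a false discovery rate of 0.01. In *sod-2* worms DESeq2 called 740 higher and 208 lower genes, against 341 and 101 by limma, and edgeR on the earlier counts called 220 and 51, with 0 members in each. DESeq2 called 957 and 490 in *clk-1* worms, against 842 and 318, and 227 and 313 in the libraries labelled *ctl-1*, against 147 and 221. At a false discovery rate of 0.01 the counts were 965 and 625 in *isp-1*, 1670 and 1450 in *daf-2*, 2296 and 1138 in *nuo-6*, 498 and 132 in *clk-1*, 494 and 362 in *prdx-2*, 76 and 81 in *ctl-1* and 165 and 43 in *sod-2* libraries. With a replicate block, which treats libraries with the same number as pairs, 453 higher and 152 lower genes and 0 members were called in *sod-2* worms. Same-numbered *sod-2* and wild-type libraries deviated together only in part (r -0.139 to 0.731, and 1 of 6 *sod-2* libraries correlated best with its own number), so they were not read as pairs. In the first experiment no paired analysis was possible because the mutant and wild-type libraries share no replicate numbers. In groups of 3 libraries the intervals are wide (for *dct-1* in *sod-1* worms, -0.70 to 0.77), and a change within them would not have been resolved.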
